A study of Danio rerio with 3 samples.

Results

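The comparison described here sets 1 small RNA library of zebrafish larvae whose parents had lived in 12.5 mg/L of mixed antibiotics against 1 library of larvae whose parents had lived in 0 mg/L. Its members are mature miRNA arms, meaning the 5p or 3p strand cut from a miRNA hairpin. Sequences that the authors named for zebrafish (dre-) and did not mark as substituted were taken once each and summed per arm. Of 216 such arms, 167 averaged at least 100 normalised reads across the series' 3 libraries, the third being that of parents at 6.25 mg/L, and were compared. The other 49 were below that minimum. The 167 arms were read as 212 forms, that is, sequences differing at their ends. For 138 arms there was 1 form, and for 29 there were 2 or more.

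Both groups were wild-type AB strain larvae of the F1 generation, collected as whole bodies at 7 days after fertilisation. Their parents (F0) had been kept in the water-borne mixture, or at 0 mg/L, for 90 days from 6 hours after fertilisation. The mixture (DKA, β-diketone antibiotics) held 6 compounds at equal weight, of which doxycycline, oxytetracycline and chlortetracycline are tetracyclines and enrofloxacin, ciprofloxacin and ofluoxacin (as the labels spell it) are fluoroquinolones. The labels state neither the number of larvae or parents behind a library nor whether larvae were pooled. With 1 library per group there is no replicate and no test, so "higher" and "lower" describe these libraries only.

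miRNAs are short RNAs that guide Argonaute proteins to messenger RNAs, whose translation and stability they reduce. Pairing depends mainly on the seed, bases 2 to 8 from the 5′ end, so arms that share a seed can bind the same sites. A hairpin yields a 5p and a 3p strand, and usually either the 5p or the 3p strand is kept in Argonaute while the other is degraded. In larvae many miRNAs mark a tissue, such as miR-124 in neurons, miR-122 in liver, miR-133 in muscle and miR-203 in skin.

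The sequences below are the most abundant form of each arm in the deposited tables, written 5′ to 3′ in DNA letters (T for U) with the seed in capitals. The 6 arms that differed at least 2-fold are shown first, with miR-19b-3p, which has the seed of miR-19a-3p.
miR-2189: tGATTGTTtgtatcagctgtgt
miR-155: tTAATGCTaatcgtgataggggt
miR-7a: tGGAAGACtagtgattttgttgt
miR-19a-3p: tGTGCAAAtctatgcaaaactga
miR-19b-3p: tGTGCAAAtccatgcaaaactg
miR-135b-5p: tATGGCTTtttattcctatctgt
miR-2191: tCACACCTacaatccctggca

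The next set holds arms of seed groups in which all were higher or all lower, and the miR-30 arms, which shared a seed and did not move together. miR-100-5p is shown because it is encoded beside miR-125b.
miR-100-5p: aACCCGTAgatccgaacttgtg
miR-125a: tCCCTGAGacccttaacctgtga
miR-125b-5p: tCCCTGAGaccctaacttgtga
miR-125c-5p: tCCCTGAGaccctaactcgtga
miR-181a-5p: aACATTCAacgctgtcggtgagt
miR-181b-5p: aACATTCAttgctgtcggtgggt
miR-190a: tGATATGTttgatatattaggtt
miR-190b: tGATATGTttgatattcggttg
miR-103: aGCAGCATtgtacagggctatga
miR-107b: aGCAGCATtgtacagggctttc
miR-30c-5p: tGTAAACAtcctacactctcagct
miR-30d: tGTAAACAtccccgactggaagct
miR-30e-5p: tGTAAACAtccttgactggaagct

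The last pair holds the arms of the miR-144 hairpin, which differed most from each other. The only form summed for miR-144-3p begins 1 nt upstream of the annotated start, per its deposited name, so the capitals mark bases 2 to 8 of that form.
miR-144-3p: cTACAGTAtagatgatgtact
miR-144-5p: gGATATCAtcgtatactgtaagt

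Seed groups were set by these letters. Substitutions between arms are given with the base of the arm named first, the position (base 1 is at the 5′ end) and the base of the other arm. miR-19a-3p and miR-19b-3p differed by T11C over their shared length, miR-125b-5p and miR-125c-5p by T18C, and miR-103 and miR-107b by A20T and G22C. miR-181a-5p and miR-181b-5p differed by A9T, C10T and A21G. All of these lie outside the seed. Reads of such near-identical arms can be told apart only by those bases.

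Larvae of parents at 12.5 mg/L had lower levels of both miR-19-3p arms of the miR-17-92 cluster, of miR-7a of neurons and endocrine cells, of miR-155 of immune cells and of miR-2189, all at or near 2-fold. The abundant miR-181-5p and miR-10-5p arms were 1.30-fold to 1.72-fold lower. Higher were miR-135b-5p, miR-2191, miR-100-5p and all 3 arms with the miR-125 seed, the last by 1.47-fold to 1.71-fold. Of all 167 arms, some of those just named included, 133 (79.6%) lay within 1.5-fold on the authors' scale.

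Across the 167 arms the median log2 ratio of 12.5 over 0 mg/L was -0.05, with quartiles of -0.42 and 0.28 and extremes of -1.31 and 1.08. Ratios used the authors' normalised reads with a pseudocount of 1. The 2-fold size was reached by 2 higher arms (1.20% of those compared) and 4 lower arms (2.40%). At 1.5-fold there were 14 higher arms (8.38%) and 20 lower arms (12%). The 95% exact interval of the ratio excluded 1 for each of these 34 arms and for 141 of the 167 in all. It covers the counting error of reads only, since 1 library per group gives no spread between libraries. PCR copies of a molecule are counted as separate reads, which the interval does not allow for.

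The balance of higher and lower arms depended on the scale. Scaling the counts to equal totals added 0.32 to every log2 ratio and gave 44 higher and 5 lower arms at 1.5-fold, 8 and 0 at 2-fold and a median of 0.27. With median-of-ratios scaling there were 18 higher and 13 lower arms at 1.5-fold, 2 and 1 at 2-fold, and a median of 0.01. Arms with a log2 ratio between -0.32 and 0 are therefore above 0 under equal totals, and for these only values are given. The 12.5 mg/L library summed to 6041242 counts and the 0 mg/L library to 4534557, of which the arms compared held 84.0% and 86.1%. The smallest arm count was 147 at 12.5 mg/L and 62 at 0 mg/L.

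**Figure D1:**
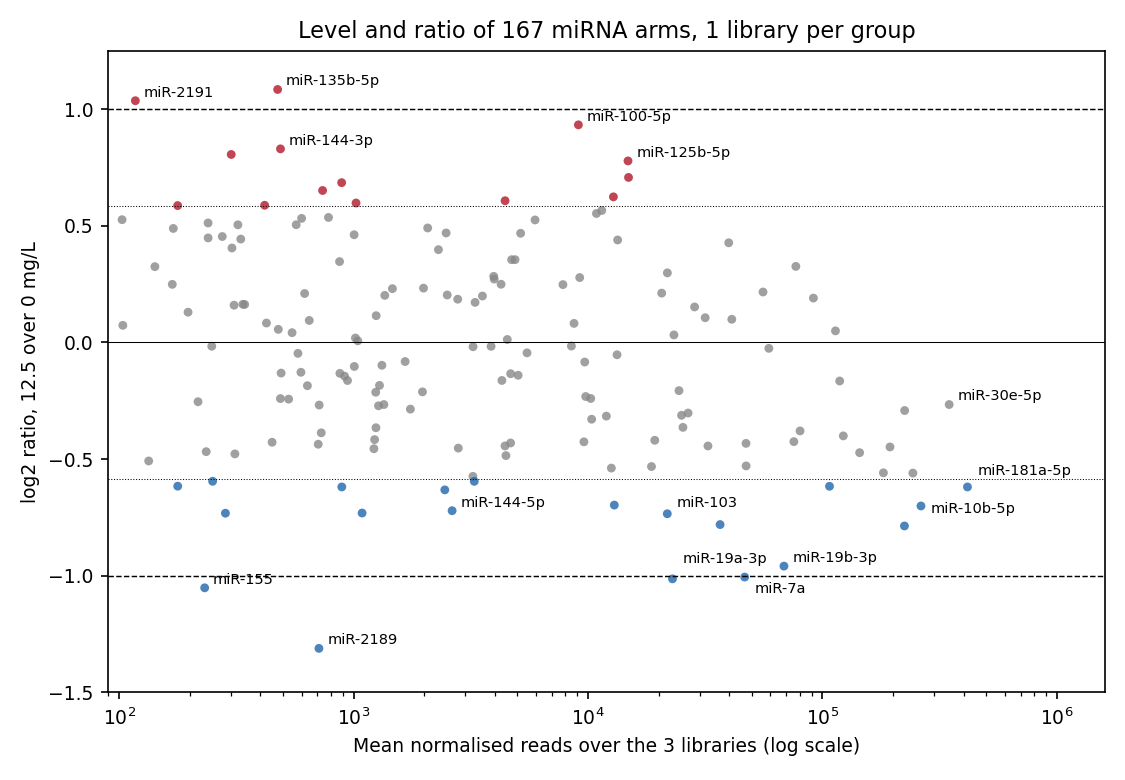
Each point is 1 of 167 miRNA arms, placed by its mean normalised reads over the 3 libraries (x, log10 axis) and its log2 ratio of 12.5 over 0 mg/L (y); dashed lines mark 2-fold and dotted lines 1.5-fold, red marks arms at least 1.5-fold higher and blue arms at least 1.5-fold lower. The 52 arms with 10000 or more mean reads have a median of -0.31, against 0.09 in the 56 arms below 1000, on the authors' scale; equal totals add 0.32 to each.

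Among the lowest arms, miR-2189 had 310 normalised reads at 12.5 mg/L and 770 at 0 mg/L, a log2 ratio of -1.31 (2.48-fold lower; 95% interval of the ratio 0.356 to 0.455). The 6.25 mg/L library had 1054, so the 12.5 mg/L library was the lowest of the 3. miR-155, a miRNA of activated lymphocytes and macrophages, had 156 and 324 (log2 ratio -1.05; 0.401 to 0.576), with 215 at 6.25 mg/L between them. miR-7a had 28211 and 56644 (log2 ratio -1.01; 0.491 to 0.505), and at 6.25 mg/L 54896, close to the 0 mg/L library. The level of miR-7a was that of an abundant arm, with 0.659% of all normalised reads at 12.5 mg/L and 1.06% at 0 mg/L. These are whole-body samples, where fewer cells of a type and less RNA per cell cannot be told apart.

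miR-19a-3p and miR-19b-3p, arms of the miR-17-92 cluster, which in mammals promotes cell proliferation, had almost the same ratio. miR-19a-3p had 17845 reads at 12.5 mg/L and 36019 at 0 mg/L (log2 ratio -1.01; 0.487 to 0.504). miR-19b-3p had 52749 and 102518 (log2 ratio -0.96; 0.510 to 0.520). Both were low in the 6.25 mg/L library as well, at 14910 and 50295, so the 0 mg/L library held the highest level of each arm. Under equal totals the log2 ratios of miR-2189, miR-155, miR-7a and miR-19a-3p were -0.99, -0.73, -0.69 and -0.69, so the directions did not turn.

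At the other end, miR-135b-5p, an arm that in human cells represses the Wnt regulator APC, had 771 normalised reads at 12.5 mg/L and 363 at 0 mg/L (log2 ratio 1.08; 1.87 to 2.42). The 6.25 mg/L library held 288, so only the 12.5 mg/L library was high. miR-2191 had 151 and 73.1 (log2 ratio 1.04; 1.55 to 2.79) and 128 at 6.25 mg/L. With 62 raw counts, miR-2191 had the fewest of the arms compared in the 0 mg/L library. With a pseudocount of 10 it was no longer 2-fold higher (log2 ratio 0.95). miR-100-5p, an arm encoded beside let-7 and miR-125 genes in many animals, had 12341 and 6466 (log2 ratio 0.93; 1.85 to 1.97), and 8487 at 6.25 mg/L. Its 3 libraries kept the order of the parental doses.

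The remaining arms among the 10 highest were miR-144-3p of red blood cells (540 and 304), miR-457b-5p (383 and 219), miR-125b-5p (20452 and 11928), miR-125a (20021 and 12264), miR-455-3p, a cartilage miRNA in mammals (1092 and 679), miR-142a-5p of blood cells (856 and 545) and miR-124-3p of neurons (15151 and 9832). Their log2 ratios ranged from 0.62 to 0.83. The remaining arms among the 10 lowest were miR-181b-5p (158246 and 272960), miR-190b (23748 and 40795), miR-103 (15444 and 25692), miR-92a-5p (216 and 359) and miR-459-3p (774 and 1286), with log2 ratios from -0.79 to -0.73. The 10 lowest arms included more of the abundant ones than the 10 highest, led by miR-181b-5p and miR-19b-3p, whereas the most abundant of the 10 highest was miR-125a or, at 12.5 mg/L, miR-125b-5p.

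**Figure D2:**
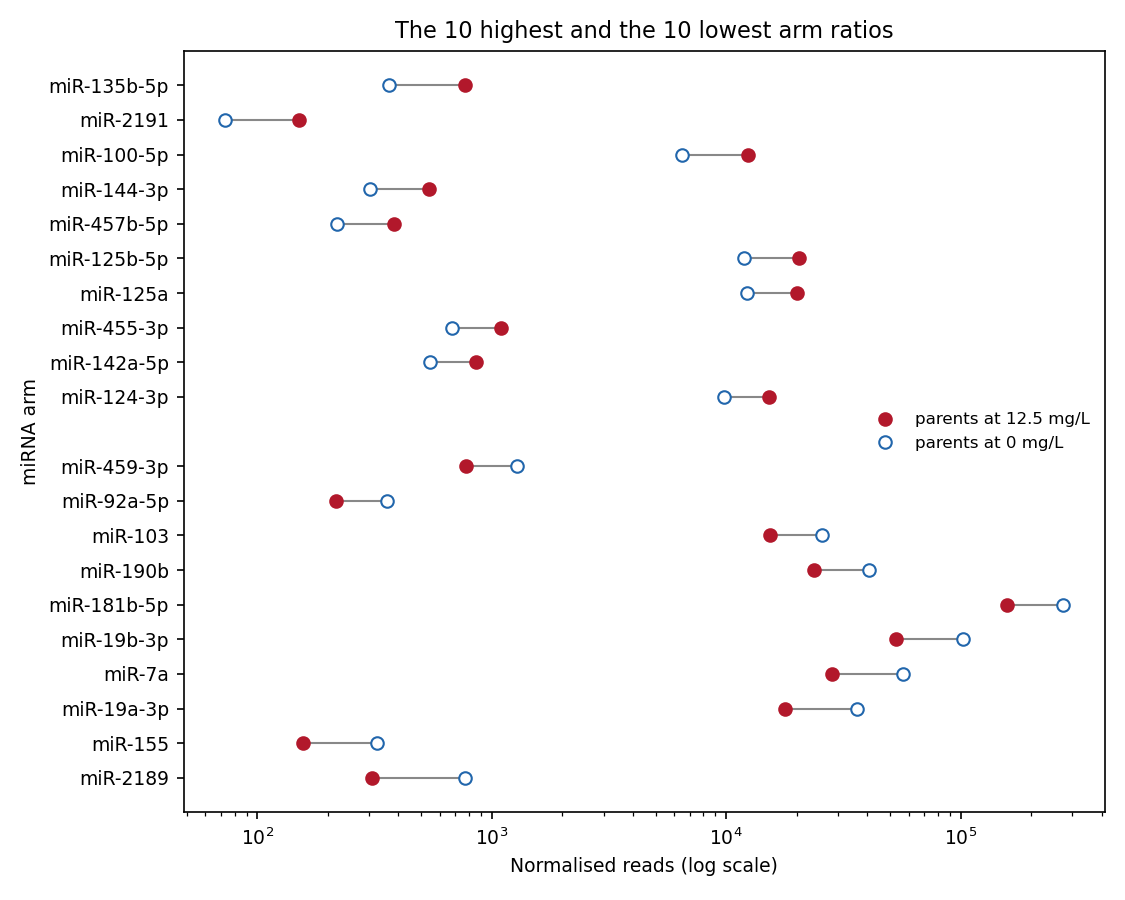
Normalised reads (x, log10 axis) of the 10 arms with the highest and the 10 with the lowest ratio, with a filled point for parents at 12.5 mg/L and an open point for 0 mg/L. miR-135b-5p is at 771 in the 12.5 mg/L library and 363 at 0 mg/L, and miR-2189 at 310 and 770.

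The 8 most abundant arms were all lower at 12.5 mg/L on the authors' scale, although 2 of them, miR-30e-5p and miR-192, come to lie above 0 under equal totals. miR-181a-5p, known from brain and lymphocytes, had 307007 and 471633 reads (log2 ratio -0.62), or 7.17% and 8.82% of all normalised reads. miR-10b-5p, encoded in a Hox cluster, had 206798 and 336155 (log2 ratio -0.70), and miR-10c-5p, of another Hox cluster, had 188598 and 278020 (log2 ratio -0.56). miR-21, an arm linked to injury and inflammation, had 146477 and 199809 (log2 ratio -0.45). miR-9-5p of neural progenitors had 137620 and 202725 (log2 ratio -0.56). miR-30e-5p had 330345 and 397282 (log2 ratio -0.27), and miR-192 of gut and kidney had 181383 and 222060 (log2 ratio -0.29).

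More abundant arms had lower ratios. The 56 arms with mean reads of 100 to 1000 had a median of 0.09, with 8 at least 1.5-fold higher and 6 lower. In the 59 arms of 1000 to 10000 the median was -0.02, and 3 were higher and 4 lower. In the 52 arms above that the median was -0.31, and 3 were higher and 10 lower. Across the 167 arms of these libraries, Pearson's r with log2 mean reads was -0.29 and Spearman's rho -0.27, a description only, since arms share libraries and are not independent. The same r was 0.05 with GC percent and -0.18 with the length of the most abundant form. Of 23 arms read mainly at 21 nt, 6 were at least 1.5-fold higher and 0 lower, with a median of 0.23. Of 41 arms read mainly at 23 nt, 2 were higher and 13 lower, with a median of -0.13. Beside these, 14 of all 167 arms (8.38%) were at least 1.5-fold higher and 20 (12%) lower. The class counts are on the authors' scale, and under equal totals the counts over all arms were 44 and 5.

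Arms that share a seed formed 24 groups of 2 or more, with 56 arms. In 6 groups all arms were above 0 and in 8 all were below, while 10 held both directions. Under equal totals 12 groups were all above 0, 8 all below and 4 mixed. Summed over the miR-125 group (miR-125a, miR-125b-5p and miR-125c-5p), the vertebrate relatives of worm lin-4, the libraries had 54362 reads at 12.5 mg/L and 33661 at 0 mg/L (1.61-fold; interval 1.59 to 1.64). The log2 ratios of its 3 arms lay between 0.55 and 0.78. At 6.25 mg/L miR-125a had 12371 and miR-125b-5p 12045, close to the 0 mg/L library. The miR-146 pair, which dampens innate immune signalling, had 46134 and 34506 (log2 ratio 0.42), and the neuronal pair miR-132-3p and miR-212 had 4363 and 3400 (log2 ratio 0.36). The other groups with all arms above 0 were those of miR-153-3p (47716 and 41384), miR-455-5p (6960 and 6119) and miR-15 (25570 and 24271). In the miR-15 group, miR-457b-5p (log2 ratio 0.81) stood apart from miR-15b-5p (0.03).

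Of the groups below 0, that of miR-19 was lowest, with 70594 reads at 12.5 mg/L and 138537 at 0 mg/L (log2 ratio -0.97). miR-190a and miR-190b had 27869 and 46351 together (log2 ratio -0.73), miR-190b being the lower at -0.78 against -0.43 for miR-190a. miR-103 and miR-107b, which lie in introns of pantothenate kinase genes and in mice affect insulin sensitivity, had 17816 and 28940 (log2 ratio -0.70). The miR-181-5p pair had 465253 and 744594 (log2 ratio -0.68), and the 3 miR-10-5p arms, each of which was lower, had 461868 and 700639 (log2 ratio -0.60). The other groups were those of miR-92a-5p (354 and 572), miR-196 of the Hox clusters (3647 and 5307) and miR-203-3p of skin (146061 and 193985). All 8 groups stayed below 0 under equal totals, since even the highest arm of any of them, miR-10d-5p, had a log2 ratio of -0.38.

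A shared seed did not always go with a shared ratio. miR-30c-5p had 104226 reads at 12.5 mg/L and 91363 at 0 mg/L, a log2 ratio of 0.19. miR-30d, with the same seed, had a log2 ratio of -0.43, and miR-30e-5p, which differs from miR-30d by C12T and C13T, had -0.27, a value above 0 under equal totals. The miR-92 seed group spanned 1.00 on the log2 scale, with miR-363-3p at 5904 and 4269 (log2 ratio 0.47), miR-92b-3p at 23823 and 19376 (0.30) and miR-92a-3p at 38851 and 56067 (-0.53). In the miR-22 group miR-22a-3p had 82016 and 125747 (log2 ratio -0.62), whereas miR-22b-3p had 4178 and 4142 (0.01).

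**Figure D3:**
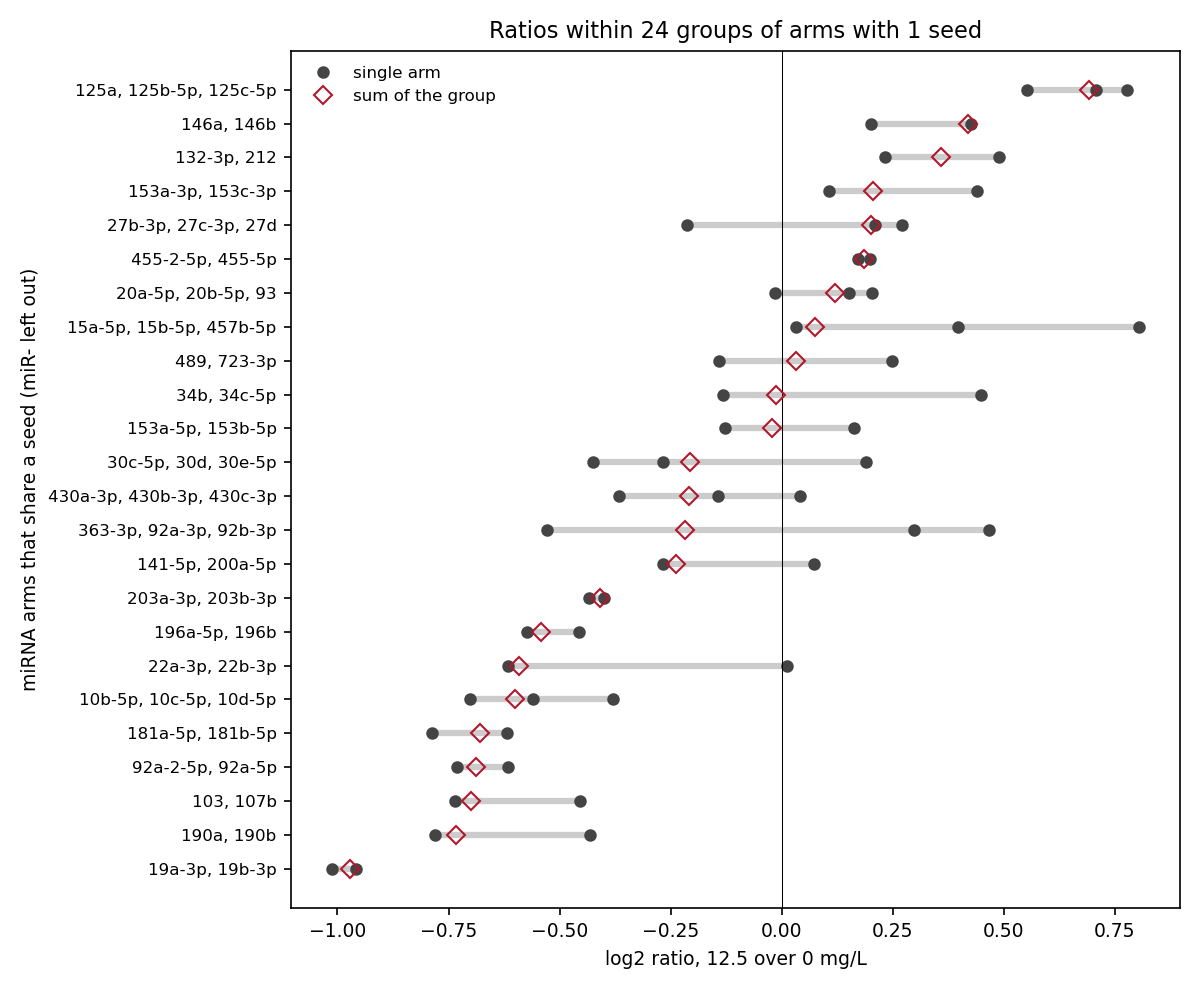
Log2 ratio of 12.5 over 0 mg/L (x) for the arms (points) and the sum (diamonds) of each of 24 groups of arms that share bases 2 to 8 (y). The 3 miR-125 arms lie between 0.55 and 0.78 and the miR-19 arms at -1.01 and -0.96, while the miR-30 group spans -0.43 to 0.19; under equal totals every point moves right by 0.32.

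Grouped by name, with letters and copy numbers dropped and 5p, 3p and unsuffixed names kept apart, the arms made 138 families. At least 1.5-fold higher were 14 families (10.1%) and lower 17 (12.3%), and at 2-fold 2 (1.45%) and 3 (2.17%). Among the 138 families, 25 had 2 or more arms and 3 had at least 3. The last were miR-10-5p, with all arms lower, miR-10-3p with a summed log2 ratio of -0.27, and miR-430-3p, which removes maternally supplied transcripts at the start of zebrafish development, with 2200 and 2545 reads (log2 ratio -0.21). Under equal totals the sums of miR-10-3p and miR-430-3p lie above 0.

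The tissue and family lists give the same arms by what they are known for. The labelled tissue, the whole larva, showed markers of its main organs in both libraries, from 115249 and 111353 reads of miR-133a-3p of muscle to 540 and 304 of miR-144-3p of red blood cells. Other markers looked for were not among the arms compared. These were miR-1 of muscle, miR-451 of red blood cells and miR-223 of leukocytes, and miR-206 of muscle was there as its 5p arm only. Of 26 lists, 24 had an arm compared and 19 had at least 3. The medians of these 19 ranged from -0.47 to 0.55, beside -0.05 over all 167 arms. Under equal totals 12 of the 24 lists, those with a median between -0.29 and -0.02, come to lie above 0, and the other 12 keep their side.

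Lists for blood and immune cells held both directions. Of 5 immune arms, miR-155 was lower and 4 were above 0, beside 77 of all 167. Under equal totals 4 were above 0 as well, beside 117 of all 167. The highest were miR-142a-5p (log2 ratio 0.65) and the abundant miR-146a, with 44610 reads at 12.5 mg/L and 33181 at 0 mg/L (log2 ratio 0.43). The others above 0 were miR-146b (log2 ratio 0.20) and miR-142a-3p (0.06). The immune median was 0.20. Red blood cells were represented by miR-144-3p (540 and 304) and miR-144-5p (1809 and 2982), which went opposite ways. In the vessel wall list, miR-126a-3p of endothelium had 8823 and 8338 (log2 ratio 0.08) and miR-143 of smooth muscle 15712 and 21012 (log2 ratio -0.42).

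Of 6 muscle arms, 5 were above 0, beside 77 of all 167, with a median of 0.47. At least 1.5-fold higher was 1 of the 6, beside 14 of all 167 (8.38%). This was miR-499-5p, encoded within a myosin gene of slow and heart muscle, with 5242 and 3440 reads (log2 ratio 0.61). Under equal totals 6 of the 6 arms were above 0 and 4 were at least 1.5-fold higher, beside 117 and 44 of all 167. miR-206-5p (133 and 92.0) and miR-133b-3p (671 and 473), arms of neighbouring genes, were also higher, at log2 ratios of 0.53 and 0.50. These reads are only part of each arm, since reads marked as substituted were left out. The part left out of miR-133b-3p was 89.3% at the highest parental dose and 88.7% at 0 mg/L. For miR-206-5p it was 47.6% and 49.8%. With those reads the log2 ratios were 0.47 for miR-206-5p and 0.59 for miR-133b-3p. The arm that made up most of the list's reads, miR-133a-3p, had a log2 ratio of 0.05, so the sum over the list hardly differed (123571 and 117843).

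The 17 nervous system arms were split, 9 above and 8 below 0, beside 77 and 90 of all 167, with a median of 0.11. Under equal totals 14 were above and 3 below 0, beside 117 and 50 of all 167. Arms known from neurons lay on both sides. miR-124-3p had a log2 ratio of 0.62, miR-212 (2244 and 1597) 0.49, miR-153a-3p (15428 and 11380) 0.44 and miR-137-3p (5349 and 4182) 0.35. The arms lower under every scaling were miR-7a (log2 ratio -1.01), miR-9-5p (-0.56) and miR-219-5p, the miRNA of myelinating glia (24934 and 33915; log2 ratio -0.44). miR-218a of motor neurons (-0.31), miR-124-5p (-0.27), miR-34b and miR-153b-5p (-0.13 each) and miR-138-5p (-0.05) were below 0 on the authors' scale and above 0 under equal totals. Since miR-9-5p and miR-7a are the most abundant of the list, its summed reads were lower (297601 and 391744; log2 ratio -0.40), opposite in sign to its median. The sensory cell list had 2 arms, miR-96-5p (4650 and 3821) and miR-96-3p (959 and 946).

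Among organ lists, miR-122 of hepatocytes had 12901 reads at 12.5 mg/L and 18653 at 0 mg/L (log2 ratio -0.53; interval 0.677 to 0.707). In the exocrine pancreas pair, miR-217 (9438 and 15301; log2 ratio -0.70) was lower and miR-216b (39561 and 36934; log2 ratio 0.10) was not. miR-375 of pancreatic islets had 2793 and 2457 (log2 ratio 0.19). Of 9 epithelium and skin arms, miR-429b (1272 and 841) was 1.51-fold higher, while the abundant miR-205-5p (124848 and 173226; log2 ratio -0.47) and miR-203b-3p (106084 and 140029; log2 ratio -0.40) were lower. The list median was -0.17. Of 4 cartilage and mesenchyme arms, miR-199-5p (14478 and 9782) had a log2 ratio of 0.57 and its partner miR-199-3p (53442 and 54390) -0.03.

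The lists with the lowest medians and at least 3 arms were miR-181 (-0.47), lipid and metabolism (-0.44) and the Hox cluster (-0.43). At least 1.5-fold lower were 2 of 4 miR-181 arms, 1 of 8 lipid arms and 1 of 10 Hox arms, beside 20 of all 167 (12%). Under equal totals 0 arms of these 3 lists were, beside 5 of all 167. In the lipid list miR-103 was lowest, and miR-148 had 3559 and 4981 (log2 ratio -0.48). All 3 medians remained below 0 under equal totals. The list of highest median was miR-99, miR-100 and miR-125 (0.55), with 3 of 7 arms at least 1.5-fold higher and 0 lower, beside 8.38% and 12% of all arms. In the stress list, the hypoxia- and interferon-linked fish pair miR-462 (2840 and 4292) and miR-731 (817 and 1256) was 1.51-fold and 1.54-fold lower, while miR-34c-5p, a p53 target in mammals, had 266 and 195 (log2 ratio 0.45).

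Of 15 arms in the list of miR-17-92 and its paralogs, 4 were at least 1.5-fold lower and 0 higher, beside 12% and 8.38% of all arms, with a median of -0.02. Under equal totals 2 were lower and 5 higher, beside 5 and 44 of all 167. The 4 lower on the authors' scale were both miR-19-3p arms and the 5p arms of miR-92a (miR-92a-5p at 216 and 359, miR-92a-2-5p at 139 and 214). miR-20a-5p had 31402 and 28261 (log2 ratio 0.15), miR-18c 8913 and 7350 (0.28) and miR-93 8680 and 8774 (-0.02). The 18 arms of the fish families included the lowest arm of all, miR-2189, and miR-2191 near the other end. Between them lay miR-726 (1822 and 2824; log2 ratio -0.63), miR-722 (3393 and 4614; -0.44) and miR-2188-5p (2900 and 2095; 0.47). No arm of the let-7 list is analysed here, and the gonad list's 2 arms were below the read minimum. The other lists, those of miR-23 with miR-27 and miR-24, of miR-26, of miR-30, of miR-130 with miR-301, of miR-135 with miR-190 and of miR-430, had medians between -0.27 and 0.04.

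**Figure D4:**
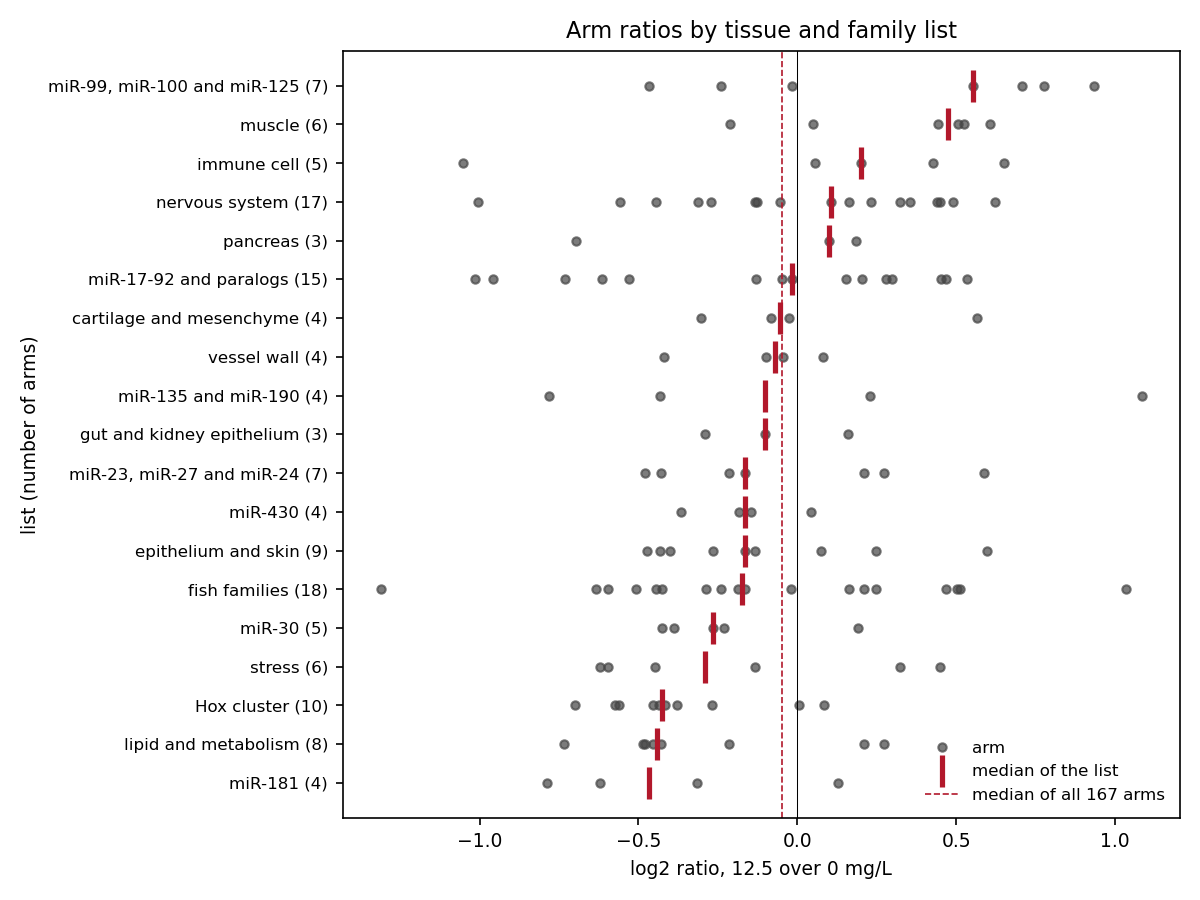
Log2 ratio of 12.5 over 0 mg/L (x) for each arm (points) and the median (bar mark) of each of 19 lists with at least 3 arms (y, number of arms in brackets). The miR-99, miR-100 and miR-125 list has the highest median (0.55) and the miR-181 list the lowest (-0.47); medians between -0.29 and -0.02 lie above 0 under equal totals.

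Both arms of a hairpin are cut from the same precursor, and the difference between their log2 ratios does not depend on the scaling of the libraries. There were 48 such pairs from 45 hairpin names. The signs of the arms do depend on it: 27 pairs had the same sign and 21 opposite signs on the authors' scale, 33 and 15 under equal totals, and 29 and 19 with median-of-ratios scaling. The intervals of the arms did not overlap in 36. The median absolute difference was 0.46, 18 pairs differed by at least 1.5-fold, and in 4 the difference was 1 or more on the log2 scale. In 25 pairs the less abundant arm had the higher ratio and in 23 the more abundant one.

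miR-144, the erythroid hairpin, differed most. Each of its arms was summed from 1 form, which for the 3p arm begins 1 nt upstream of the annotated start. The 3p arm of miR-144 was 1.78-fold higher in larvae of parents at 12.5 mg/L (interval 1.55 to 2.06). The 5p arm was 1.65-fold lower (interval of the ratio 0.574 to 0.641), a difference of 1.55 on the log2 scale. At 6.25 mg/L miR-144-3p had 620 and miR-144-5p 3104, so the 5p arm was low in the 12.5 mg/L library only, whereas the 3p arm was low in the 0 mg/L library only. For miR-125b the 5p arm was 1.71-fold higher while miR-125b-2-3p had 182 and 252 (log2 ratio -0.47). Of the reads of miR-125b-2-3p, 72.5% at 12.5 mg/L and 68.3% at 0 mg/L were marked as substituted and left out. With them its log2 ratio was -0.27, a value above 0 under equal totals. For miR-100 the 5p arm was 1.91-fold higher while miR-100-2-3p had 389 and 460 (log2 ratio -0.24). In miR-728 the 3p arm had 377 and 265 (log2 ratio 0.50) and the 5p arm 104 and 149 (log2 ratio -0.51).

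The low miR-19a-3p and the high miR-135b-5p also parted from their partners. miR-19a-5p had 583 reads at 12.5 mg/L and 603 at 0 mg/L (log2 ratio -0.05), 0.97 above miR-19a-3p. miR-135b-3p had 1451 and 1236 (log2 ratio 0.23), 0.85 below miR-135b-5p. miR-124-5p had 1134 and 1370 (log2 ratio -0.27, above 0 under equal totals) beside 0.62 for miR-124-3p. Of the reads of miR-124-5p, 55.5% at 12.5 mg/L and 50.7% at 0 mg/L were marked as substituted and left out. With them its log2 ratio was -0.12. Pairs close together included miR-30e (-0.27 and -0.23) and miR-10d (-0.38 and -0.42), where the 5p value comes first.

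Some hairpin names belong to several genes, so that their arms need not come from the same precursors. In RefSeq's zebrafish gene table, whose assembly is not the build the files use, miR-125b has 3 loci, miR-100 has 2 and miR-124 has 6, while miR-144, miR-728, miR-19a and miR-135b have 1 each. Among the 31 pairs with 1 locus, 11 had opposite signs (9 under equal totals) and 23 had intervals that did not overlap. The 31 count miR-455-3p with miR-455-5p and again with miR-455-2-5p, whose sequences differ, so that name may cover more than 1 gene. Both of these pairs had intervals that did not overlap.

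**Figure D5:**
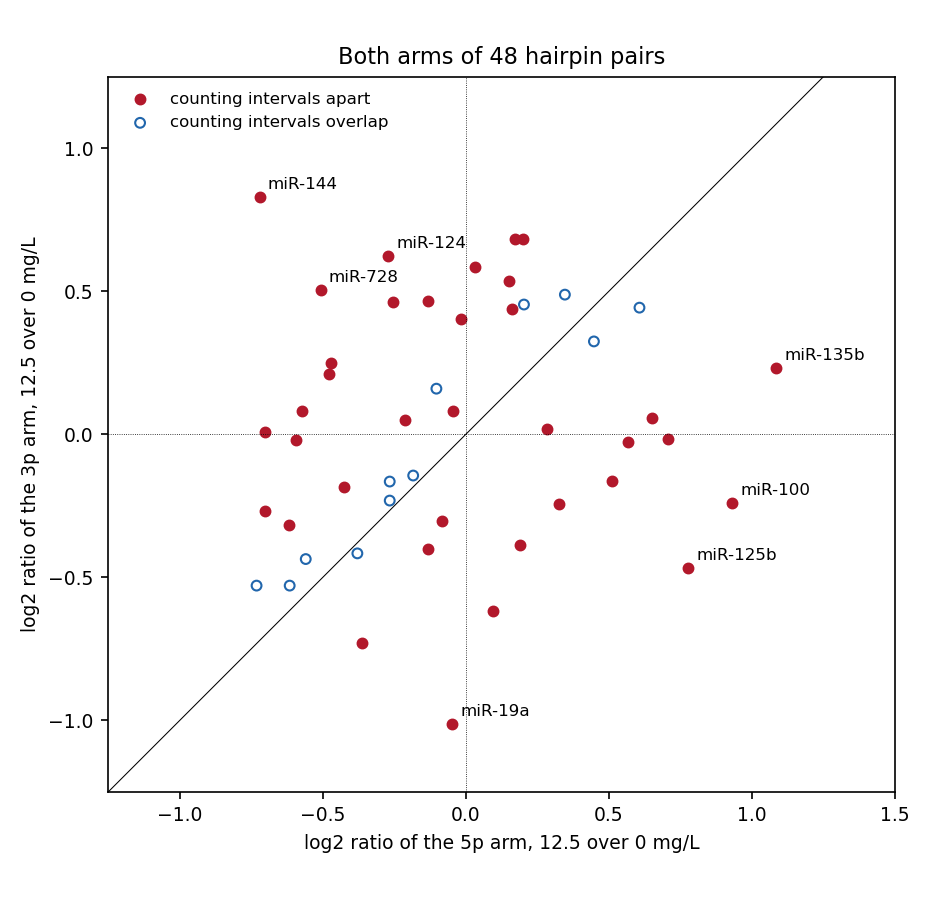
Each point is 1 of 48 hairpin pairs, placed by the log2 ratio of 12.5 over 0 mg/L of its 5p arm (x) and its 3p arm (y); the diagonal marks equal ratios, and filled points are the 36 pairs whose counting intervals do not overlap. miR-144 lies at -0.72 and 0.83 and miR-125b at 0.78 and -0.47, and under equal totals all points move by 0.32 along the diagonal.

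The same table placed 116 of 119 gene names and gave 24 groups of neighbours within 10 kb, miRNAs that may be transcribed together. In 4 groups all arms compared were above 0, in 6 all were below and in 14 the arms went both ways. Under equal totals these numbers were 9, 1 and 14. Some clusters have several copies that hold the same arms, as for miR-212 with miR-132, miR-181a with miR-181b and miR-100 with miR-125b. Each copy was counted as a group, so the groups are not independent. The paired genes miR-462 and miR-731, with 1 locus each, had nearly equal log2 ratios (-0.60 and -0.62). Without their substituted reads, so had miR-133b-3p and miR-206-5p (0.50 and 0.53), and with them the values were 0.59 and 0.47. By contrast, miR-217 and miR-216b, neighbours with 1 locus each, stood at -0.70 and 0.10. The miR-17-92 group had 8 arms between -1.01 and 0.54, miR-20a-3p being the highest (953 and 657). These include miR-92a-5p and miR-92a-2-5p, and miR-92a has 2 loci, so not all 8 arms need come from this group. The neighbours miR-100 and miR-125b were both higher in their 5p arms, and both had 3p arms below 0. Of these 3p arms, miR-100-2-3p is above 0 under equal totals. With its substituted reads miR-125b-2-3p had a log2 ratio of -0.27, also above 0 under equal totals.

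Within arms, 22 had 2 or more forms with a mean of at least 10 reads. The forms of an arm spanned a median of 0.45 on the log2 scale, and in 7 arms they lay on both sides of 0. The mean read length of the arm was greater at 12.5 mg/L in 16 arms and smaller in 6, but the median difference was only 0.006 nt. For miR-7a, the annotated form and the form 1 nt longer at the 3′ end had log2 ratios of -1.01 and -0.99. In miR-430b-3p the annotated form had 214 and 337 reads (log2 ratio -0.65) and the form 2 nt longer 112 and 62.5 (log2 ratio 0.84). Forms 1 nt longer also exceeded the arm as a whole in miR-499-5p (1.38 beside 0.61), miR-137-3p (1.08 beside 0.35) and miR-124-3p (1.23 beside 0.62).

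Sequences marked as substituted were left out of the arms, and 22 of the arms compared had such forms with a mean of 10 or more reads. The substituted share of an arm's reads was higher at 12.5 mg/L in 19 of them and lower in 3, with medians of 19.7% at 12.5 mg/L and 12.4% at 0 mg/L. The median log2 ratio was 0.56 for the substituted reads and -0.21 for the unsubstituted reads of the same arms, and the signs were opposite in 10. Substituted reads of miR-203b-3p numbered 231 at 12.5 mg/L and 10.6 at 0 mg/L. Those of miR-21 numbered 116 and 9.78. Against the reads of their arms these are under 1%, so the arm ratios hardly depend on them.

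In other arms the substituted reads weighed more. miR-7a with its substituted reads had a log2 ratio of -0.84 in place of -1.01, since those reads were 28.1% of it at 12.5 mg/L and 19.5% at 0 mg/L. On the authors' scale directions turned in 2 of the 22 arms. For miR-129-5p the log2 ratio was -0.02 without and 0.03 with substituted reads, both near 0, and for miR-26a-5p the change was larger. The unsubstituted reads of miR-26a-5p were 85652 and 68335 (log2 ratio 0.33). Of all its reads, 75.6% at 12.5 mg/L and 84.2% at 0 mg/L were marked as substituted, and with them the log2 ratio was -0.30. Under equal totals both miR-129-5p and miR-26a-5p lie above 0 with and without substituted reads. There, miR-430a-3p (-0.37 without and -0.29 with them on the authors' scale) and miR-125b-2-3p (-0.47 and -0.27) turn. A sequence marked as substituted may be another member of the same family, which the names do not settle.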

How the data were processed

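Small RNA of whole larvae was sequenced in 3 libraries, 1 per parental dose. Per the labels' protocols, total RNA was extracted with Trizol and 1 μg went into TruSeq small RNA libraries read as single ends of 36 bp. The submitters' processing notes name the build Zv9. For the aligner, miRNA release and read counting, methods are not given in the sources consulted. The authors deposited raw columns with an estimated count of reads per sequence (expected counts) before scaling, of which 78.2% were whole (tolerance 1e-09). The normalised columns deposited by the authors hold a signal, the count times 1 factor per library (1.18, 1.02 and 0.709 for parental doses of 0, 6.25 and 12.5 mg/L). Total counts were 4534557, 5099264 and 6041242 in that order. The three-library table and the table of 12.5 and 0 mg/L shared 1202 sequences and no value differed. In miR-219-5p, miR-430a-3p and miR-430b-3p, 6 forms had the same counts as another form of their arm and were kept.

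From these files, zebrafish-named sequences without a substitution mark (265) were summed per arm, a sequence with several names counting once under its most abundant row. Arms needed a mean of 100 or more normalised reads. A pseudocount of 1 was added before the log2 ratio, which shrinks the differences of scarce arms. Intervals are exact (Clopper-Pearson, 95%) from counts rounded to whole numbers, and cover counting error only. No test was run. Sizes of 2-fold and 1.5-fold were used. Named arms are the 10 highest, the 10 lowest, the 8 most abundant, the 2 most abundant of each list and every arm of a list with an arm past 2-fold. Other named arms, such as those of pairs, seed groups and forms, were picked with their values known. The members, lists and rules were chosen with earlier results of these data known. The ratio and interval code was tested on simulated data. Alternatives covered the pseudocount, the scaling, the minimum, substituted forms, names of other species, sequences under several names and the most abundant form alone. Sequences were taken from the deposited tables. The gene table of RefSeq was used for names and neighbours only. Python 3.11.15, pandas 2.3.3, numpy 2.4.6, scipy 1.17.1 and matplotlib 3.10.9 were used.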

Additional observations from a re-analysis of the deposited data

How the results depend on the processing

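The 2-fold counts of 2 higher and 4 lower arms, the 1.5-fold counts of 14 and 20, and the median of -0.05 depended on the scaling and on the read minimum. Equal totals gave 8 higher and 0 lower arms at 2-fold, 44 and 5 at 1.5-fold and a median of 0.27. The median of ratios gave 1 lower arm at 2-fold and 13 at 1.5-fold. A pseudocount of 10 gave 1 arm at least 2-fold higher. With substituted forms summed in, 5 of 190 arms were at least 2-fold higher. A minimum mean of 10 reads gave 4 higher arms at 2-fold and 26 at 1.5-fold, of 198. A minimum of 1000 gave 0 higher and 2 lower at 2-fold and 6 higher at 1.5-fold, of 111. With no minimum, 8 were higher and 8 lower at 2-fold and 33 higher at 1.5-fold, of 215.

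Of the 99 named arms, 76 kept their sign under equal totals, 94 under the median of ratios and 98 with substituted forms or with the most abundant form alone. The log2 ratios of the 6 arms past 2-fold ranged over all settings from 1.07 to 1.40 for miR-135b-5p, 0.95 to 1.35 for miR-2191, -1.05 to -0.73 for miR-155, -1.01 to -0.69 for miR-19a-3p, -1.01 to -0.69 for miR-7a and -1.31 to -0.99 for miR-2189. Counting forms with identical counts once was added after seeing the data and turned no sign. No paired analysis was possible because each group had 1 library, and its replicate number is only a name. Leaving out a library leaves no comparison. The cause of these shifts was not tested. Depth limits scarce arms such as miR-2191, and differences between larvae or libraries cannot be told apart from those between parental doses.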
